A study of Mus musculus with 6 samples.

Results

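Thrombospondins and other matricellular proteins are secreted into the extracellular matrix (ECM), where most of them act as regulators of cells and fibers rather than as load-bearing structure. A group of 10 such genes was read, by Ensembl identifier without its version, in a table of 52636 genes from mouse thoracic aorta: the 5 thrombospondins Thbs1, Thbs2, Thbs3, Thbs4 and Comp, the tenascins Tnc and Tnxb, and Postn (periostin), Sparc (osteonectin) and Fn1 (fibronectin). All 10 had counts, and all 10 were among the 17070 genes with an adjusted p-value. Transcripts were compared between aortas with intact TGF-β receptors and aortas in which both receptor genes had been targeted for deletion in smooth muscle cells (SMCs) within the preceding week.

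The study holds 6 bulk RNA sequencing libraries of whole thoracic aorta from mice at 12 weeks of age, labelled as strain C57BL/6J. The 4 WT libraries came from untreated C57BL/6J mice. The 2 libraries labelled KO came from Tgfbr1/2iSMCKO mice, which carry loxP-flanked Tgfbr1 and Tgfbr2, Myh11-CreERT2 and the mT/mG reporter, and which were given tamoxifen i.p. at 11 weeks, 2 mg daily on 5 days. Cre was driven by the promoter of Myh11, the smooth muscle myosin heavy chain gene, so that endothelial cells, fibroblasts and other cells of the wall were not targeted. The WT mice carried none of these alleles and received no tamoxifen, and effects of receptor loss, of the transgenes and of tamoxifen cannot be told apart in this comparison. The names KO-1 and KO-2 stand below for the libraries that carry these labels.

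Thrombospondins fall into a subgroup of trimers, Thbs1 and Thbs2, and a subgroup of pentamers, Thbs3, Thbs4 and Comp. Thbs1 is stored in platelet granules, binds CD36 and CD47, and can release TGF-β from its latent complex. Tenascins modulate adhesion of cells to fibronectin, periostin and osteonectin bind collagen, and fibronectin is the scaffold on which many other matrix proteins are assembled. Fn1, Tnc and Postn are known as genes that TGF-β can induce, and Thbs1 is known to respond to TGF-β and to growth factors.

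Total estimated counts ran from 19650983 to 28860598 per library. The mitochondrial share of counts was 2.62% to 4.44% in WT, 3.38% in KO-1 and 11.7% in KO-2. Markers of smooth muscle were abundant in every library, with Acta2 between 328100 and 445600 normalised counts (counts divided by a size factor for depth). Tgfbr1 and Tgfbr2 did not pass the test (log2 fold changes 0.20 and -0.09, DESeq2 adjusted p-values 0.63 and 0.838), but a whole-gene count includes exons outside the deleted ones and cells without Cre, and so does not check the labels. In whole tissue, fewer cells of a type and less RNA per cell cannot be told apart. Nothing in the labels says whether libraries were prepared or sequenced together.

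The 10 genes moved in both directions. A gene was called when its DESeq2 adjusted p-value (Benjamini-Hochberg, over all genes) was under 0.05 and its fold change above 2. By this rule Thbs1 was called higher in KO, Tnc and Tnxb were called lower, and 3 of 10 genes were called in all, where 5.64% of all tested genes were called (3.54% higher and 2.1% lower). With the adjusted p-value alone, 6 of 10 passed against 10.4% of all tested genes, 1 higher (Thbs1) and 5 lower (Tnc, Tnxb, Postn, Sparc and Fn1). The shares of all tested genes that passed were 5.71% for higher and 4.69% for lower genes. Thbs2, Thbs3, Thbs4 and Comp did not pass. In 7 of 10 genes both KO libraries lay outside the WT range, 1 above it and 6 below, as they did in 34.3% of all tested genes (17.9% above and 16.4% below). The median log2 fold change of the 10 was -0.64, against 0.02 for the genes averaging at least 10 normalised counts. Together the 10 genes took 1.12% ± 0.0576 (SD, n = 4) of all counts in WT and 0.696% ± 0.0227 (SD, n = 2) in KO. Calls were 962 over all genes and 636 without KO-2. Among the 10 genes, leaving out KO-2 ended the call of Tnxb, and leaving out WT-2 added a call of Thbs4.

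**Figure D1:**
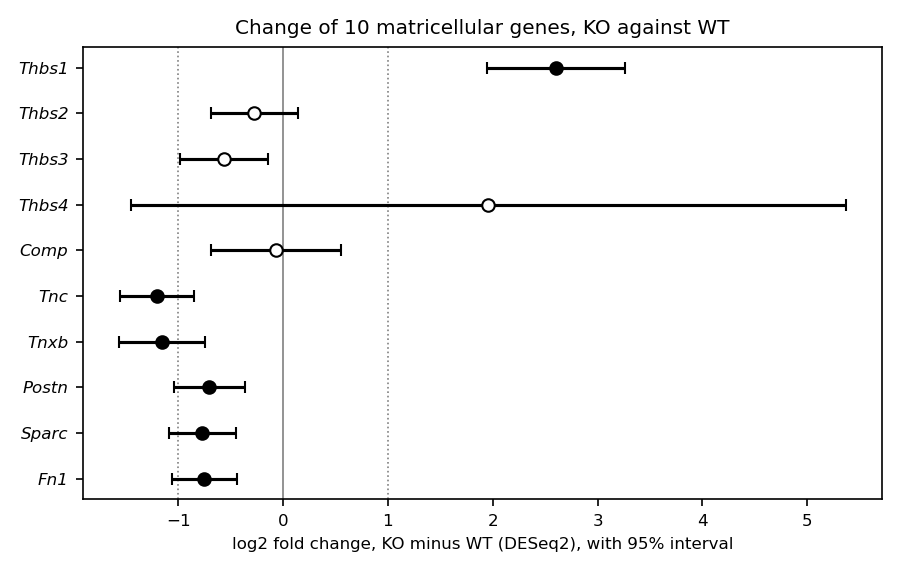
Log2 fold change (KO minus WT) of the 10 genes from DESeq2, with 95% Wald intervals as bars; filled points have an adjusted p-value under 0.05 and dotted lines mark 2-fold. Thbs1 lies at 2.60 on the right, Tnc and Tnxb lie left of the 2-fold line, Postn, Sparc and Fn1 lie between -0.77 and -0.71, and the interval of Thbs4 spans from -1.45 to 5.37.

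Thbs1 (ENSMUSG00000040152.8, GRCm38 chromosome 2, 118111876 to 118127133, + strand) was the single gene of the 10 that passed higher. In WT-1 to WT-4 it had 398.7, 863.9, 954.7 and 1186 normalised counts, with 6142 in KO-1 and 4204 in KO-2. Both KO libraries lay well above every WT library, and WT-1 was the lowest of the 6. The mean rose from 850.9 ± 330.6 (SD, n = 4) to 5173 ± 1370 (SD, n = 2), a ratio of 6.08. On the log2 scale the rise was 2.60 (SE 0.34, adjusted p by DESeq2 2.52e-12), and the 95% interval of the fold change ran from 3.86 to 9.59. In 12 alternative fits this value ran from 2.31 to 3.11 and the adjusted p-value from 2.39e-19 to 0.00995. On the opposite strand, Gm29233 shares 3.42% of the exon bases of Thbs1 and had 0 counts in every library. Genes on the opposite strand likewise share 2.5% of the exon bases of Fn1 and 2.26% of those of Tnc.

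Thbs2 (chromosome 17, 14665500 to 14694235, - strand), the other trimer, did not pass the test. In WT-1 to WT-4 it had 2226, 2680, 2851 and 2703 normalised counts, with 2600 in KO-1 and 1717 in KO-2. KO-1 lay within the WT range and KO-2 below it. The log2 fold change was -0.28 (SE 0.21, adjusted p by DESeq2 0.485), with a 95% interval from -0.69 to 0.14. Without KO-1 it was -0.61 and passed (adjusted p by DESeq2 0.0239), and without KO-2 it was 0.0026, so that its sign turned.

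The change in balance between the trimeric thrombospondins can be read on a per-length scale, as normalised count per kilobase (kb) of exon. The ratio of Thbs1 to Thbs2 on this scale was 0.207, 0.372, 0.386 and 0.506 in WT-1 to WT-4, 2.72 in KO-1 and 2.82 in KO-2. Thbs1 was thus the lesser of the pair in every WT library and the greater in both KO libraries. KO-1 and KO-2 were closer to each other in this ratio than in the count of either gene.

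Among the pentamers, Thbs3 (chromosome 3, 89215180 to 89226837, + strand) had normalised counts of 2054, 1864, 1799 and 2095 in WT-1 to WT-4, 1612 in KO-1 and 1023 in KO-2. Both KO libraries lay below the WT range, but the log2 fold change of -0.57 (SE 0.21) did not pass, with an adjusted p by DESeq2 of 0.0695 and a 95% interval from -0.99 to -0.15. The result differed between the KO libraries: without KO-1 it was -0.93 (adjusted p by DESeq2 2.13e-05) and without KO-2 it was -0.27 (0.47). Mtx1, a metaxin gene on the opposite strand, shares 6.59% of the exon bases of Thbs3 and had 426.7 ± 57.1 normalised counts (SD, n = 4) in WT, against 453.8 ± 112.7 (SD, n = 2) for KO, so counts of Thbs3 may hold some of its reads.

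Comp (chromosome 8, 70373558 to 70382066, + strand), the cartilage oligomeric matrix protein, had normalised counts of 861.2, 1383, 808.9 and 1064 in WT-1 to WT-4, 1354 in KO-1 and 612.1 in KO-2. KO-1 was second only to WT-2 and KO-2 was the lowest of all, so the groups overlapped. Its log2 fold change was -0.06 (SE 0.32, adjusted p by DESeq2 0.936), with a 95% interval from -0.68 to 0.55. The direction turned to 0.41 without KO-2 and to 0.11 without WT-2.

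Thbs4 (chromosome 13, 92751590 to 92794818, - strand), a thrombospondin of tendon and muscle, was near the limit of detection. It had 5, 56, 0 and 11 raw counts in WT-1 to WT-4, 116 in KO-1 and 35 in KO-2. A count of 0 allows up to 3 counts, for counting error alone. WT-2 lay above KO-2 in normalised count (50.3 against 43), so the groups overlapped. The log2 fold change of 1.96 had an SE of 1.74 and an adjusted p by DESeq2 of 0.564, and without WT-2 it was 3.54 and passed (adjusted p by DESeq2 0.0104).

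**Figure D2:**
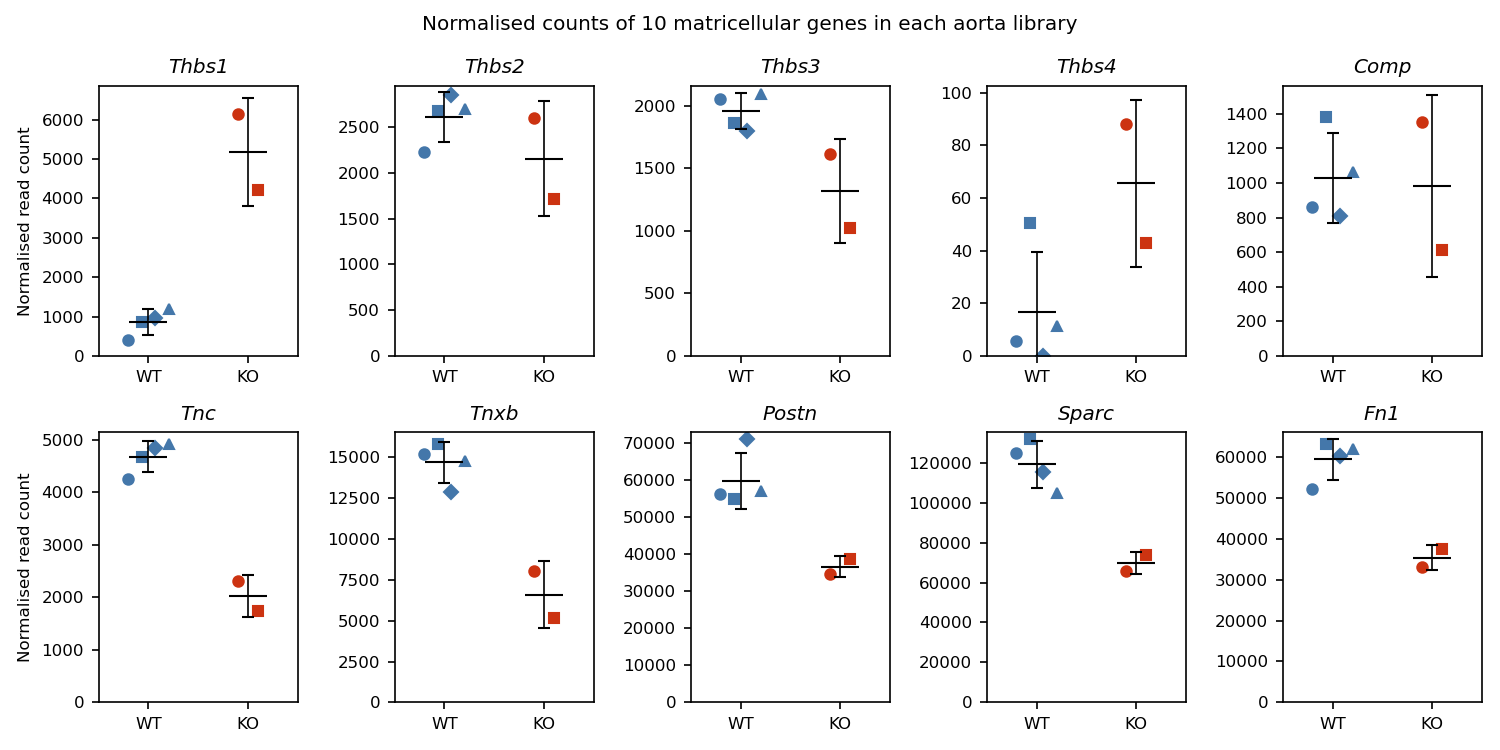
Normalised read count (linear axes from 0) of each of the 10 genes in each library; circles, squares, diamonds and triangles are replicates 1 to 4, blue is WT, red is KO, and black marks give the mean ± SD of a group. The groups are apart for Thbs1, Thbs3, Tnc, Tnxb, Postn, Sparc and Fn1 and overlap for Thbs2, Thbs4 and Comp.

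The tenascins fell together. Tnc (ENSMUSG00000028364.15, chromosome 4, 63959785 to 64047015, - strand), which encodes a hexameric adhesion-modulating glycoprotein, had normalised counts of 4255, 4674, 4830 and 4924 in WT-1 to WT-4, 2311 in KO-1 and 1743 in KO-2. The WT libraries were tightly grouped, with a coefficient of variation of 6.33%, the smallest of the 10 genes, and both KO libraries were far below them. The mean fell from 4671 ± 295.7 (SD, n = 4) to 2027 ± 401.8 (SD, n = 2), and WT was 2.30 times as high as KO. The log2 fold change was -1.20 (SE 0.18, adjusted p by DESeq2 2.95e-09), with a range over the alternatives from -1.42 to -1.004 and adjusted p-values of at most 0.00745.

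Tnxb (ENSMUSG00000033327.16, chromosome 17, 34670535 to 34719815, + strand), which encodes tenascin-X, a tenascin of collagen fibrils, had normalised counts of 15220, 15820, 12890 and 14790 in WT-1 to WT-4, 8050 in KO-1 and 5135 in KO-2. Neither KO library reached the lowest WT library. The mean fell from 14680 ± 1264 (SD, n = 4) to 6593 ± 2061 (SD, n = 2), and WT was 2.23 times as high as KO. Its log2 fold change was -1.15 (SE 0.21, adjusted p by DESeq2 2.13e-06). Without KO-2 it was -0.86, which passed the adjusted p-value but not the 2-fold threshold, and without KO-1 it was -1.51. The ratio of Tnxb to Tnc per kb was 2.01 ± 0.257 (SD, n = 4) in WT, against 2.05 ± 0.242 (SD, n = 2) for KO.

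Genomic sequence before the transcription start is shown for Tnc, Tnxb and Postn, the lowered genes whose 250 bases before a RefSeq start (GRCm38.p6) were in the reference table and overlap no annotated exon. RefSeq windows matched 7 of the 10 genes by symbol, and Thbs1, Comp and Fn1 were not among them. Capitals mark matches, on either strand, to CAGAC (a core bound by SMAD proteins, which carry the TGF-β signal), to the AP-1 site TGANTCA, to the CArG box bound by serum response factor, or to TATAAA; no matches overlap. The windows are chr4:64047016-64047265 (- strand) for Tnc, chr17:34670285-34670534 (+ strand) for Tnxb and chr3:54360857-54361106 (+ strand) for Postn, each written 5′ to 3′.
Tnc: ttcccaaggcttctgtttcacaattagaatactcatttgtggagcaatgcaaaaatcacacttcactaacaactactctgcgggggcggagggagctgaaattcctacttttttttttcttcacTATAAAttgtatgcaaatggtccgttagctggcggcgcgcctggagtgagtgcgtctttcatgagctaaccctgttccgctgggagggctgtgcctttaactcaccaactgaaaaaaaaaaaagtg
Tnxb: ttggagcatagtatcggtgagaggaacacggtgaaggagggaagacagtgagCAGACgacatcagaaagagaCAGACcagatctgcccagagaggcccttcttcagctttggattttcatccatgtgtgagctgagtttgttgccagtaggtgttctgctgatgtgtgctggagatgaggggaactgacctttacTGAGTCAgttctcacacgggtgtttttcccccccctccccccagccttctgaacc
Postn: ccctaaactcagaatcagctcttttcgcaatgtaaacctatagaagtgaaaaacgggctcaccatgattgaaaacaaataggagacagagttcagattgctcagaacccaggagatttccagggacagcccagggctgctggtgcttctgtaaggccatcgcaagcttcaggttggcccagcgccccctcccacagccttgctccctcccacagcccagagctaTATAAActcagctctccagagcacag

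The window of Tnxb held 2 matches to CAGAC, beginning 198 and 178 bases before the start, and 1 to the AP-1 site at 55 bases. Those of Tnc and Postn held no CAGAC and 1 TATAAA each, at 126 bases before the start in Tnc and at 26 bases in Postn. Of 32851 windows of the same length in the table, 42.2% held CAGAC, 6.75% the AP-1 site, 1.47% the CArG box and 12.4% TATAAA. The CArG box matched in none of the 3 windows. Matches are letters in a window, and binding was not measured.

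Postn, Sparc and Fn1, the most abundant of the 10 genes, fell in both KO libraries. Postn (ENSMUSG00000027750.16, chromosome 3, 54361109 to 54391037, + strand), a collagen- and integrin-binding protein of remodelling matrix, had normalised counts of 56090, 54770, 70920 and 57020 in WT-1 to WT-4, 34640 in KO-1 and 38580 in KO-2. WT-3 stood above the other WT libraries and both KO libraries below them all. The log2 fold change was -0.71 (SE 0.17, adjusted p by DESeq2 0.00122), and without WT-3 it was -0.61 (adjusted p by DESeq2 0.000929).

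Sparc (ENSMUSG00000018593.13, chromosome 11, 55394500 to 55423183, - strand), whose product binds collagen during its assembly, had normalised counts of 124700, 131700, 115500 and 104800 in WT-1 to WT-4, 65980 in KO-1 and 73700 in KO-2. No KO library came near the WT range. The mean fell from 119200 ± 11670 (SD, n = 4) to 69840 ± 5457 (SD, n = 2). On the log2 scale this was -0.77 (SE 0.16, adjusted p by DESeq2 0.000105).

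Fn1 (ENSMUSG00000026193.15, chromosome 1, 71585520 to 71653200, - strand) had normalised counts of 52160, 63220, 60170 and 61910 in WT-1 to WT-4, 33140 in KO-1 and 37470 in KO-2. Here too the groups were apart, with WT-1 the lowest of the WT libraries. The log2 fold change was -0.75 (SE 0.16, adjusted p by DESeq2 0.000115). The WT to KO ratios of means were 1.63 for Postn, 1.71 for Sparc and 1.68 for Fn1. In these 3 genes KO-1 was the lower of the KO libraries, whereas in Tnc and Tnxb KO-2 was the lower.

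Levels per length placed the genes on a common scale. In WT, Sparc was highest, with 31450 ± 3082 (SD, n = 4) normalised counts per kb, higher than 99.9% of the protein-coding genes tested. Postn (6860 ± 866.2) and Fn1 (5081 ± 424.7) followed, then Tnxb (1202 ± 103.6) and Tnc (601 ± 38), all SD with n = 4. Thbs3 (405 ± 29.7), Thbs2 (373.4 ± 38.6) and Comp (346.9 ± 87.7) came next, and these neighbors did not differ beyond their spread. Thbs1 (140.1 ± 54.4) and Thbs4 (5.11 ± 6.93) were last. In KO, Thbs1 had 851.7 ± 225.6 (SD, n = 2) normalised counts per kb and ranked above Tnxb (540 ± 168.8) and every other thrombospondin. Its percentile among protein-coding genes was 56.6 in WT and 92.5 in KO, and that of Tnc was 88.6 and 73.7. The order among Sparc, Postn and Fn1 was the same in KO, at 18440, 4207 and 3022 normalised counts per kb. The ratio of Sparc to Fn1 per kb was 6.23 ± 0.906 (SD, n = 4) in WT, against 6.11 ± 0.0527 (SD, n = 2) for KO.

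**Figure D3:**
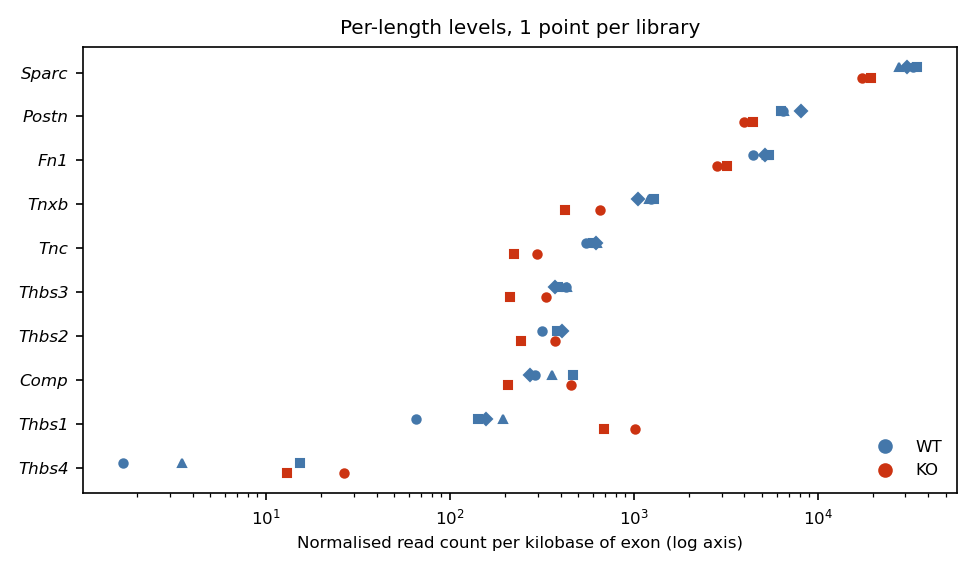
Normalised read count per kilobase of exon (log axis) for the 10 genes, ordered by WT mean, with 1 point per library, blue for WT and red for KO; the 0 of Thbs4 in WT-3 is not drawn. Thbs1 is next to last in WT and lies between 692.2 and 1011 in KO, beyond the WT libraries by more than their range.

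By a distance over the log2 changes of the 6 libraries from the WT mean, the genes most like Thbs1 among 15510 compared were Fras1 (distance 0.54), H2-T24 (0.86), Gm12198 (0.98), Ccl19-ps1 (1.03) and Susd1 (1.04). Fras1 encodes an ECM protein of basement membranes, and H2-T24 is a nonclassical histocompatibility gene. Fras1 had a mean ratio of KO to WT of 4.85 (log2 fold change 2.28, adjusted p by DESeq2 5.78e-05), with 188.9 normalised counts in KO-1 and 135.2 in KO-2. The 5 genes were chosen for their likeness to Thbs1, so their rise in KO followed from the choice. The adjusted p-value of Fras1 is therefore no separate evidence. All 5 had levels far below that of Thbs1, and Ccl19-ps1 had raw counts of 2, 11, 6 and 5 in WT-1 to WT-4.

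Other matricellular genes also divided. Of 18 further members of these families, 14 had an adjusted p-value, 2 passed higher and 3 lower. For this list and those that follow, the shares of all tested genes that passed were 5.71% higher and 4.69% lower. Ccn1 (log2 fold change -1.42, adjusted p by DESeq2 4.99e-05) and Ccn2 (-1.28, 7.44e-06), the CYR61 and CTGF genes, were called lower, and Ccn4 (1.47, 2.89e-07), the WISP1 gene, was called higher. Fstl1, a relative of Sparc, fell by less (-0.73, 0.00202), and did not pass without KO-2 (0.0574). The median over those averaging at least 10 normalised counts was -0.02, against -0.64 for the 10 genes above. Tnn and Ccn6 had 0 counts in every library.

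Of 19 receptor genes for these proteins, 2 passed higher and 5 lower. Cd36, the receptor of Thbs1 that is also abundant in fat and endothelium, averaged 389.8 ± 126.2 (SD, n = 4) in WT and rose to 2554 ± 1170 (SD, n = 2), with 1726 normalised counts in KO-1 and 3381 in KO-2 (log2 fold change 2.71, adjusted p by DESeq2 6.61e-14). Cd47, the other main receptor of Thbs1, had a log2 fold change of -0.01 (adjusted p by DESeq2 0.982). The laminin-binding integrin gene Itga6 was called higher (2.23, 7.34e-05), though not without KO-2 (0.0638). Lower genes included Itga9, whose product binds tenascin-C (-0.84, 2.96e-05), and Itgb5, part of an integrin that binds periostin (-0.95, 5.19e-05). Itgb5 passed the 2-fold threshold without WT-3 (-1.02) or without KO-1 (-1.22).

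Of 18 matrix partners, 3 passed higher and 3 lower. Fbln2, a fibronectin-binding fibulin, rose (log2 fold change 0.91, adjusted p by DESeq2 0.000281), passing the 2-fold threshold without WT-4 (1.02) or without KO-2 (1.11). Col12a1, a fibril-associated collagen that binds tenascin-X, was called higher (1.55, 0.000457), though not by edgeR with its filter (adjusted p-value 0.0516) or without KO-1 (0.0547). Hspg2 (perlecan, -0.62, 0.00532) and Col5a2 (-0.51, 0.0111) fell, and neither passed without KO-2 (0.064 and 0.0821) or by edgeR without its filter (adjusted p-values 0.0581 and 0.0707). Col5a2 did not pass with total counts as scaling either (0.066).

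Of 11 proteases that cleave matricellular proteins, 2 passed higher and 2 lower. Adamts4 (log2 fold change 2.16, adjusted p by DESeq2 1.84e-05) and Adamts5 (0.76, 0.00107), both aggrecan-cleaving enzymes, rose. Htra1 (-0.86, 2.22e-05) fell. Mmp3 (-0.96, 0.0284) passed in 4 of 12 alternatives, and its adjusted p-value was above 0.05 without WT-1 (0.0993), WT-2 (0.157), WT-4 (0.121) or KO-2 (0.434).

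TGF-β ligands and latent binding proteins, the complex on which Thbs1 is known to act, showed 2 lower genes of 7 and 0 higher. Ltbp3 had the larger change (log2 fold change -0.97, adjusted p by DESeq2 2.43e-08; -1.01 without WT-4) and Ltbp1 the smaller (-0.47, 0.0123). Ltbp1 did not pass by edgeR without its filter (adjusted p-value 0.0745) or with total counts as scaling (0.0664). The ligand genes had log2 fold changes of -0.21 (Tgfb1), 0.17 (Tgfb2) and 0.31 (Tgfb3), with DESeq2 adjusted p-values of 0.691, 0.686 and 0.31.

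Of 9 genes known to be induced by TGF-β, 3 passed, all lower. Pmepa1 (log2 fold change -1.45, adjusted p by DESeq2 5.76e-14), Nox4 (-1.42, 1.77e-09) and Ccn2 were called lower. Of 14 immediate early genes, 4 passed and all were lower, led by Nr4a1 (-1.55, 2.02e-08) and Fosb (-1.62, 9.48e-07). Ier3 (-1.02, 0.00343) and Atf3 (-0.89, 0.00569) also fell. By edgeR with and without its filter neither passed, with adjusted p-values of 0.0684 and 0.0655 for Ier3 and of 0.0714 and 0.076 for Atf3. Ier3 did not pass without KO-1 either (0.106), and without WT-1 its change was -0.85. Atf3 did not pass without KO-2 either (0.161), and its change was -1.02 without WT-3 and -1.04 without KO-1. Thbs1, which responds to many of the same stimuli as immediate early genes, rose where these 4 fell.

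**Figure D4:**
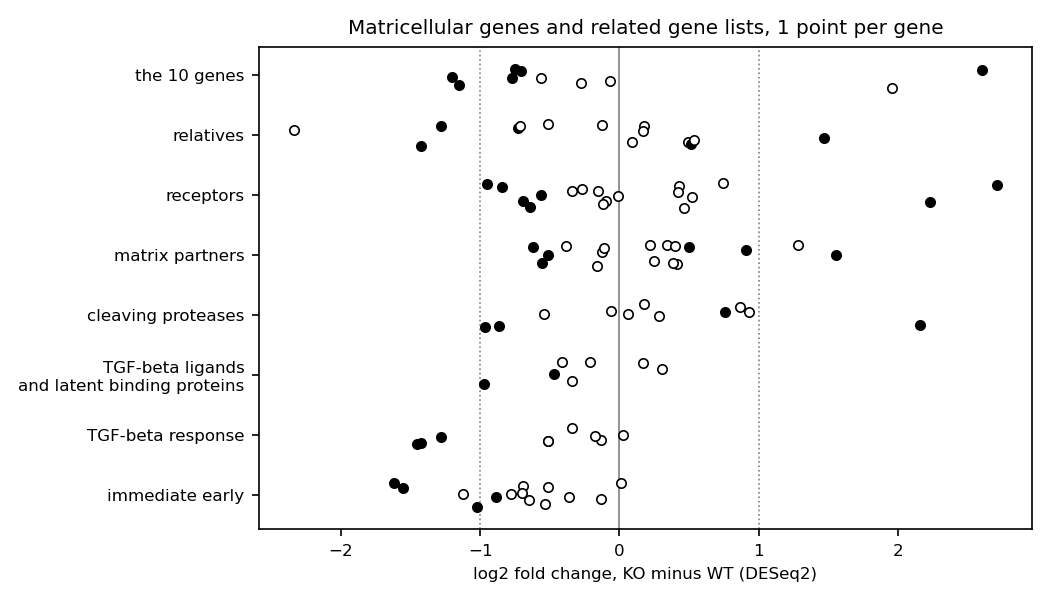
Log2 fold change (KO minus WT) of each gene with an adjusted p-value in the 10 genes and 7 related lists, with filled points for adjusted p-values under 0.05 and dotted lines at 2-fold; a few genes are on 2 lists, and points are spread vertically to be seen. Filled points lie on both sides in the first 5 lists from the top and only on the lower side in the 3 lists at the bottom.

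Markers of other cell types were compared beside these changes, because Thbs1 is made by several of them. Endothelial markers summed to 11610, 15500, 21160 and 21860 normalised counts in WT-1 to WT-4, 31580 in KO-1 and 30570 in KO-2, with 4 of 7 passing higher. This sum placed the 6 libraries in the same order as Thbs1 did, with WT-1 lowest and KO-1 highest. Single markers were split between KO-1 and KO-2. Vwf (11530 in KO-1, 8131 in KO-2), Tek (2305, 1945) and Tie1 (1885, 1857) were higher in KO-1. Pecam1 (12940 in KO-1, 14040 in KO-2), Cdh5 (2263, 3191), Kdr (349.8, 896.1) and Emcn (311.1, 505.2) were higher in KO-2. On the log2 scale the endothelial sum lay 0.85 above the WT mean in KO-1 and 0.80 in KO-2, where Thbs1 lay 2.85 and 2.30 above. For macrophage markers the sums were 10480 to 12440 in WT and 18800 and 21440 in KO, with 8 of 9 passing higher. The platelet list summed to 419.4 to 585.5 in WT, 865 in KO-1 and 1074 in KO-2, with 3 of 9 passing higher, namely Pf4 (log2 fold change 0.71), Ppbp (3.798) and Tubb1, which was at 0 in every WT library. All 7 mesothelial genes passed higher, with sums of 309.8 to 576.2 in WT, 1160 in KO-1 and 3072 in KO-2. Red blood cell markers summed to 859.3 to 5990 in WT, 11080 in KO-1 and 61680 in KO-2, with 4 of 5 passing higher. Between the KO libraries, Thbs1 and the endothelial, fibroblast and cardiac sums were higher in KO-1, and the platelet, mesothelial, red blood cell and macrophage sums were higher in KO-2. The part of these cells in the change of Thbs1 was not tested. Thbs1 was called higher without KO-2 (2.86) and without KO-1 (2.31).

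For cardiac muscle the sums were 3125 to 4238 in WT, 23190 in KO-1 and 3965 in KO-2, with 4 of 8 genes passing higher. In 2 of the 8 both KO libraries lay above the WT range, as in 17.9% of all tested genes. Tnnt2 had 4445 in KO-1, 1975 in KO-2 and at most 848.8 in WT, and Tnni3 1251, 264.3 and at most 203.2. Ryr2 had 2291 to 2667 in WT, 3100 in KO-1 and 1368 in KO-2. Skeletal muscle markers summed to 193.2 to 260.3 in WT, 711 in KO-1 and 233.5 in KO-2. Of these 0 of 7 passed, and 5 had an adjusted p-value. Ckm alone had 608.5 in KO-1, against 104.4 to 141 in WT and 83.6 in KO-2. Brown adipocyte markers summed to 359.2 to 648.1 in WT, 818 in KO-1 and 11780 in KO-2, and white adipocyte markers to 2547 to 4894, 5392 and 37810, with 3 of 5 and 3 of 6 passing higher. Lymphocyte genes, 0 of 7 of which passed, summed to 20.9 to 68.1 in WT, 88.8 in KO-1 and 329.4 in KO-2. Schwann cell sums were 1071 to 1167 in WT and 1132 and 1302 in KO, with 0 of 6 passing.

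Among fibroblast and smooth muscle markers, none passed lower. Fibroblast markers summed to 46080 to 51660 normalised counts in WT and 59580 and 64590 in KO, and 2 of 7 passed, both higher (Lum, log2 fold change 0.997, and Dpt, 0.57). Both KO libraries lay above the WT range in 4 of the 7 and below it in 0. Clec3b, on the same list, had a log2 fold change of -0.48 and did not pass. Smooth muscle markers summed to 907600 to 1067000 in WT, 867800 in KO-1 and 1023000 in KO-2, and 0 of 7 passed. Both KO libraries lay below the WT range for Tagln, Cnn1 and Smtn (log2 fold changes -0.41, -0.38 and -0.30). They lay above it for Myh11 (0.36) and Synpo2 (0.25), and the groups overlapped for Acta2 and Lmod1. Over all tested genes, 16.4% lay below and 17.9% above. Tendon and cartilage markers, which share a tissue with Comp and Thbs4, summed to 740.3 to 915.1 in WT, 1318 in KO-1 and 2767 in KO-2. Of these 1 of 9 passed, Chad (chondroadherin, log2 fold change 4.40), which had 486.4 normalised counts in KO-1 and 1712 in KO-2, against at most 83.5 in WT. Chad was the largest single part of the sum in both KO libraries. Among the next most abundant of the list, Sox9, Scx and Hapln1 had log2 fold changes of 0.75, 0.11 and -0.78. Comp was the lowest of the 6 libraries in KO-2, where Chad was highest.

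**Figure D5:**
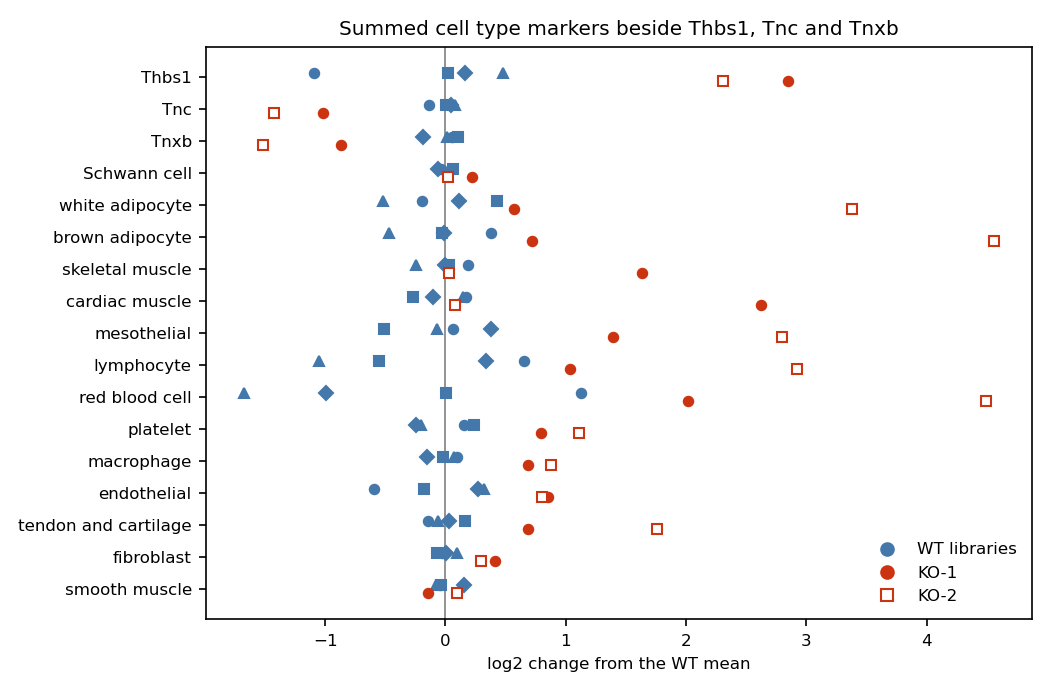
Log2 change from the WT mean of the summed markers of 14 cell types, and of Thbs1, Tnc and Tnxb, with blue points for WT libraries, a filled red circle for KO-1 and an open red square for KO-2. Thbs1 is at 2.85 in KO-1 and 2.30 in KO-2, while fat, red blood cell and mesothelial sums are higher in KO-2. The cardiac sum is high in KO-1 alone (2.63 against 0.08), although its members Tnnt2 and Tnni3 were above WT in both KO libraries.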

How the data were processed

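Bulk RNA sequencing of 6 thoracic aorta libraries (4 WT, 2 labelled KO) was analysed. The authors used Trim Galore for trimming, HISAT2 for mapping to mm10 (GRCm38) and StringTie for quantifying GENCODE genes. Each deposited value is an estimated count for a gene, with no correction for depth. All were whole, so rounding changed none. How coverage became counts and whether strand was used are not given in the sources used here, so overlapping genes may share reads. The columns carry codes rather than titles: a code numbered 1 to 4 was taken as WT and a code numbered 1 to 2 as KO, with these numbers as replicate numbers.

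DESeq2 1.42.0 (R 4.3.3) compared KO with WT (Wald test on group alone, with its own size factors and no earlier filter). Fold changes of single libraries used a pseudocount of 0.5. Alternatives were edgeR 4.0.16's quasi-likelihood test with and without its filter, DESeq2 on genes with at least 10 counts in all, TMM factors or total counts as scaling, a replicate block, and leaving out each library. Positions, types and exon lengths came from GENCODE M21 (GRCm38), which held 52489 of the 52636 identifiers. The study counts mice as its replicates, and counting limits cover counting error only.

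The 10 genes and all lists were chosen with earlier results of these data known. The rule for named genes took the 10 genes, Tgfbr1 and Tgfbr2, up to 4 genes with the smallest adjusted p-value under 0.05 in each related list, the 5 genes nearest to Thbs1 and markers set beside a value. Cd47, the TGF-β ligands, and single genes named for 0 counts or overlap were chosen after their values were seen. A gene of the TGF-β response list is not reported here and was left out of its counts.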

Additional observations from a re-analysis of the deposited data

Results flagged for a closer look

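Each of 50 results (the 10 genes, other genes named by rule and 14 marker sums) was checked for a WT library separated from its nearest neighbor by over 0.829 of the WT range. Such a library was seen in 2 results, against 2.5 expected if 1 in 20 is met by chance. The KO libraries are too few for this check. Postn had 70920 normalised counts in WT-3, against 54770 to 57020 in the other WT libraries, a gap of 0.86 of the range. Smooth muscle markers summed to 1067000 in WT-3, against 907600 to 932900 in the others (0.841 of the range).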

How the results depend on the processing

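Over 12 alternative fits, Thbs1, Tnc, Tnxb and Sparc kept their direction and an adjusted p-value under 0.05 in all 12. Calls over all genes numbered 962, and were 633 with edgeR and its filter, 561 with the replicate block, and 636 to 1284 when a library was left out. Of the 633 and 561, 621 and 405 were shared with the 962. Among the 10 genes, 2 to 4 were called when a library was left out, and 6 to 8 passed the adjusted p-value. With the replicate block Postn (-0.60, adjusted p-value 0.214) and Fn1 (-0.70, 0.1) did not pass, 4 of the 10 passed, and no other call among the 10 changed. Of the related genes named, Itga9 (0.085), Hspg2 (0.247), Col5a2 (0.401), Adamts4 (0.12), Adamts5 (0.241), Mmp3 (0.0663) and Ltbp1 (0.484) did not pass with this block either (DESeq2 adjusted p-values). The numbers are not shown to pair the libraries. Deviations from the group means correlated at -0.0867 between WT-1 and KO-1 and at 0.014 between WT-2 and KO-2. With 2 KO libraries, the deviations of KO-1 and KO-2 are mirror images, so these values cannot decide whether the libraries are paired. With a library left out, log2 fold changes ran from -0.61 to 0.0026 for Thbs2, from -0.93 to -0.27 for Thbs3, from 1.35 to 3.54 for Thbs4 and from -0.75 to 0.41 for Comp, with 0.11 for Comp without WT-2. The cause of these shifts was not tested. In the related lists (93 genes), 12 genes were called, and 10 to 17 over the alternatives, a count added after seeing the data. In the main fit, 5.64% of all tested genes were called. Of the 24 related genes named, 12 passed the adjusted p-value in every alternative. The low counts of Thbs4 (0 to 116 per library) limit what can be said of it at this depth, and with 2 KO libraries, results for Thbs2, Thbs3, Comp and Tnxb change with the one left out.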
